A study of Mus musculus with 6 samples.

Results

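Semaphorins, plexins and neuropilins are a family of cell-surface and secreted guidance proteins. The 31 genes described here were taken by name, as every symbol of the form Sema3 to Sema7 with a letter, every plexin A, B, C or D gene, and Nrp1 and Nrp2. The family was chosen with earlier results of these data known. They comprise 20 semaphorins, 9 plexins and 2 neuropilins out of 24513 genes in the count tables. Between 3 wild-type (WT) and 3 NS-DADm hypothalami, 0 of the 31 passed an adjusted p of 0.05 in either direction (edgeR), where 0.0818% of all genes tested passed as higher and 0.573% as lower. Their fitted log2 fold changes lay between -0.43 (Sema3b) and 0.16 (Plxna4).

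RNA came from the whole hypothalamus of C57BL/6 mice of 3 to 4 months, with a separate library for each of 3 WT and 3 NS-DADm animals. The labels give only the name NS-DADm. From general knowledge of the line, both nuclear receptor corepressors, NCOR1 and SMRT, are altered in the domain with which they switch on the histone deacetylase HDAC3, and the alteration is carried in the germline, so it is present in all tissues.

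Semaphorins are ligands that share a sema domain, and plexins are their receptors. Class 3 semaphorins are secreted and mostly need a neuropilin, which binds the ligand, beside a plexin A, which carries the signal into the cell. Classes 4, 5 and 6 span the membrane and bind plexins directly, and Sema7a is held to the membrane by a lipid anchor and binds Plxnc1 and integrins. Plexins act on small GTPases and the cytoskeleton and so repel or attract growing axons. In hypothalamus, class 3 semaphorins and neuropilins are known for guiding neurons that make gonadotropin-releasing hormone, and for shaping melanocortin projections, during development. In adult brain the family also acts at synapses, in vessels and in oligodendrocytes.

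Each library held 24173076 to 27606309 reads on genes, and the 31 genes took 0.228 to 0.238% of them, 57645 to 65193 reads per library. All 31 passed the filter on low counts, and the smallest count of any member in any library was 87, for Sema3g. Some libraries stood apart in other tissues' markers. The summed level of 14 thalamus markers was 1112 to 1606 CPM (the usual depth-scaled count, here with TMM factors) in WT and 777 to 889 CPM in NS-DADm, and 14 of 14 had a fitted value below 0, 6 of them past the threshold. The 12 anterior pituitary markers summed to 83.5, 108 and 157 CPM in WT 1, 2 and 3. In NS-DADm 1, 2 and 3 the sums were 262, 2080 and 246 CPM, each above every WT library. The gene Gh alone gave 1810 CPM in NS-DADm 2. All 12 hypothalamus markers had reads in each library, with sums of 543 to 664 CPM. In whole tissue, fewer cells of a type and less RNA per cell cannot be told apart. Some alternative fits below carry the mean log2 CPM of the thalamus or pituitary markers as a covariate. The thalamus mean was 5.41 to 6.19 in WT and 4.45 to 4.79 in NS-DADm. The pituitary mean was 0.04 to 0.34 in WT and 0.69 to 2.8 in NS-DADm. As neither overlapped between groups, fits with these covariates cannot tell marker level from genotype.

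Levels of different genes were compared per length, as RPKM (reads per kilobase of merged exons, scaled to depth). Sema6b, a membrane semaphorin that binds Plxna4, was the most abundant member in WT at 33.8 ± 3.2 RPKM (mean ± SD, n = 3, as for all levels below). Plxna1 followed with 23.9 ± 1.4 RPKM, Plxnc1 with 20.2 ± 1.3 RPKM and Sema4a, a ligand of B and D plexins, with 18.0 ± 0.43 RPKM. The secreted class lay at the bottom of the order. Sema3a had 0.853 ± 0.086 RPKM, Sema3e 1.10 ± 0.21 RPKM, Sema3g 1.14 ± 0.41 RPKM, Sema3b 1.33 ± 0.15 RPKM and Sema3d 1.71 ± 0.23 RPKM, so the highest mean was 39.6 times the lowest. Sema3c, at 5.27 ± 0.19 RPKM, and Sema3f, the main ligand of Nrp2, at 3.45 ± 0.30 RPKM, stood above the rest of that class.

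**Figure D1:**
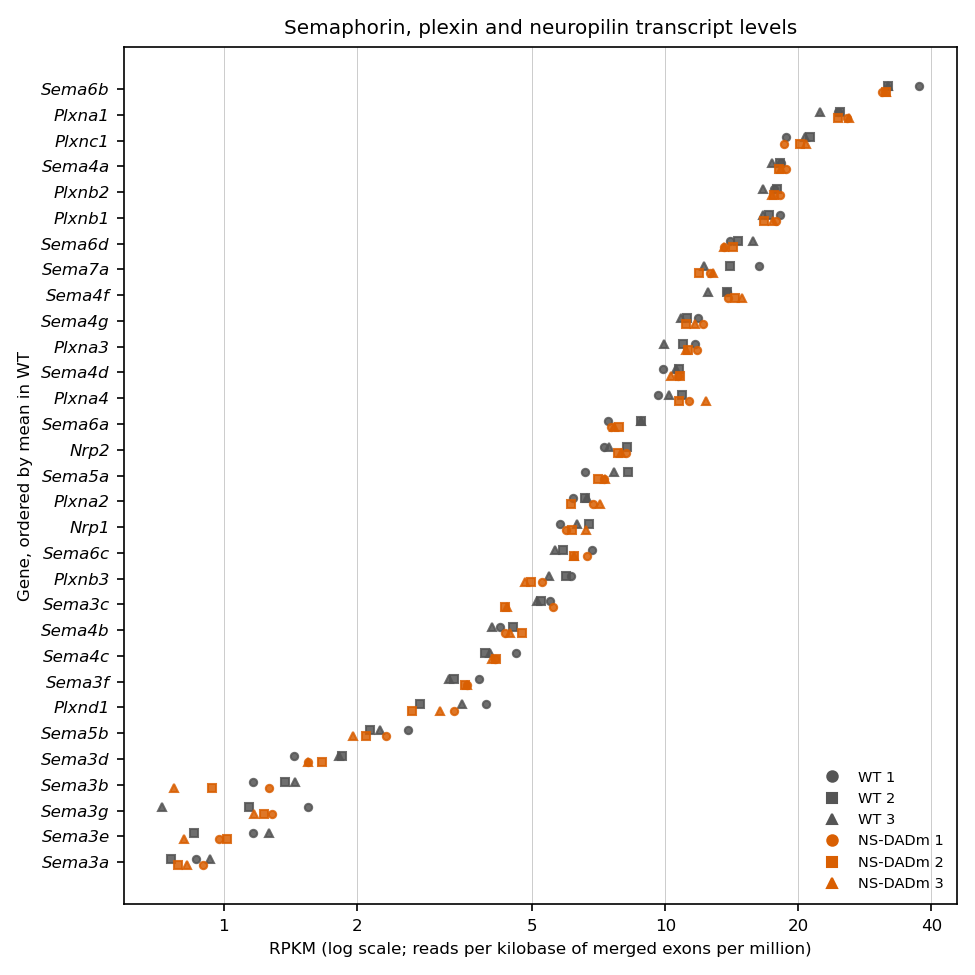
Level of each of the 31 genes in each of the 6 libraries, in RPKM (per length of merged exons) on a log axis, with genes ordered by their mean in WT. Sema6b lies highest and 5 of the class 3 semaphorins lie lowest, and the WT and NS-DADm symbols lie close together for most genes.

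Receptors were mostly in the upper and middle part of this order. Plxnb2 and Plxnb1, receptors for class 4 semaphorins, measured 17.4 ± 0.63 and 17.3 ± 0.82 RPKM and their WT libraries overlapped. Plxna3 had 10.9 ± 0.89 RPKM, Plxna4 10.2 ± 0.62 RPKM and Plxna2 6.47 ± 0.25 RPKM. Nrp2 had 7.63 ± 0.47 RPKM and Nrp1, which binds Sema3a and also vascular endothelial growth factor, 6.26 ± 0.47 RPKM. Plxnd1, the receptor of Sema3e in vessels, was the lowest receptor at 3.39 ± 0.58 RPKM. Of 30 neighbouring pairs in the order, 20 overlapped between their WT libraries and 10 did not, so most single steps of the order were no larger than the spread between mice. The order also depended on the length used. With the longest transcript in place of merged exons, Nrp1 moved from rank 18 to rank 11 and Sema3a from rank 31 to rank 28, whereas Sema6b remained at rank 1.

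The comparison of genotypes gave no call among the 31. Over all 15894 genes tested, 0.654% passed an adjusted p of 0.05 (edgeR quasi-likelihood test, Benjamini-Hochberg adjustment over all genes), and the smallest adjusted p of a member was 0.18. Without adjustment, 3 of 31 members (9.68%) had a p under 0.05, against 10.9% of all genes. They were 1 above 0 (Plxna4), where all genes gave 4.4%, and 2 below 0 (Plxnb3 and Sema3b), where all genes gave 6.46%. The 2 groups did not overlap in 3 members, against 16.8% of all genes. These were Sema4f, higher in NS-DADm as were 7.86% of all genes, and Plxnb3 and Sema6b, lower as were 8.93%. DESeq2 and limma voom, run as alternatives, likewise called 0 members. With DESeq2, 4 members had an unadjusted p under 0.05, where 1237 of 15894 genes did. With limma voom it was 3 members, where 1748 of 15894 genes did. The number of members under 0.05 depended on the libraries used. Without WT 1 it was 12 of 31, where 2328 of 15999 genes were under 0.05 (edgeR). The members' fitted values were above 0 in 15 and below 0 in 16, with a median log2 fold change of -0.01 beside 0.004 over all genes tested. The 95% interval of the fold lay within 1.5-fold in either direction for 29 of the 31. It reached further for Sema3b (log2 -0.79 to -0.06) and Sema3g (log2 -0.40 to 0.62), which had among the lowest counts.

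**Figure D2:**
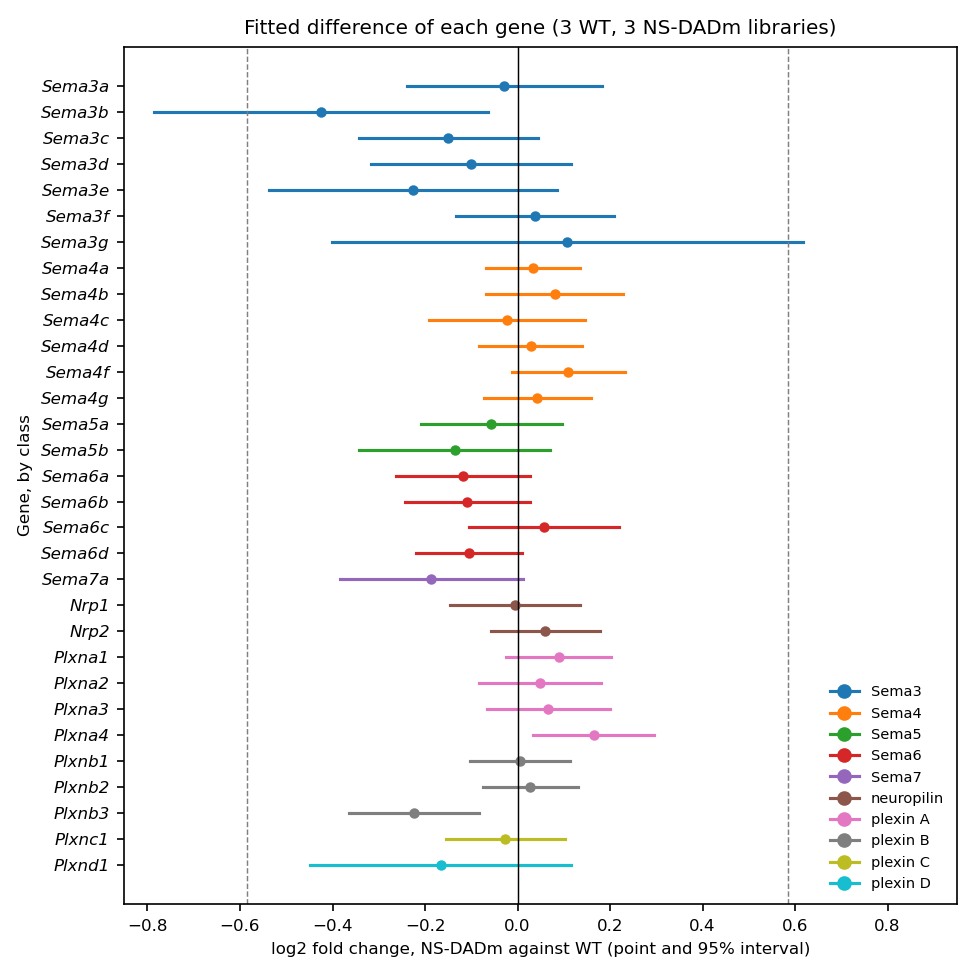
Fitted log2 fold change of each gene, NS-DADm against WT, with its 95% interval, by class; dashed lines mark 1.5-fold in either direction. Of the 31 intervals, 28 include 0, those of Sema3b and Plxnb3 lie below it and that of Plxna4 lies above it, before any adjustment.

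Among the secreted ligands, Sema3b had the largest fitted difference. It measured 5.56, 6.58 and 6.93 CPM in libraries WT 1, 2 and 3, compared with 6.06, 4.49 and 3.69 CPM in libraries NS-DADm 1, 2 and 3. The groups overlapped, since NS-DADm 1 lay above WT 1, and these levels rested on 97 to 183 reads per library. Its log2 fold change was -0.43 ± 0.17 (SE; edgeR, adjusted p = 0.36). Sema3c, the most abundant of the class, measured 39.1, 37.3 and 36.5 CPM across WT mice, against 39.7, 31.0 and 31.3 CPM across NS-DADm mice (edgeR, adjusted p = 0.61). NS-DADm 1 was the highest library of all for Sema3c, and the other NS-DADm libraries were the lowest. The other class 3 genes had fitted log2 values of -0.23 (Sema3e), -0.10 (Sema3d), -0.03 (Sema3a), 0.04 (Sema3f) and 0.11 (Sema3g), with adjusted p-values of 0.63 to 0.96 (edgeR). Sema3b and Sema3f are close neighbours on chromosome 9, at 107597674 to 107609229 and 107681500 to 107710475 (mm10), and Sema3d, Sema3a, Sema3e and Sema3c lie between 12383385 and 17730268 on chromosome 5.

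Membrane ligands of class 4 differed little between groups. Sema4f, found at synapses, measured 72.9, 72.9 and 65.9 CPM across WT mice, against 73.2, 76.2 and 79.0 CPM across NS-DADm mice. Its groups did not overlap, but the lowest NS-DADm library lay just above the highest WT library. The log2 fold change was 0.11 ± 0.06 (SE), with an interval of -0.01 to 0.23 (edgeR, adjusted p = 0.53). Sema4a measured 98.7, 98.1 and 94.4 CPM across WT mice, against 101, 97.7 and 99.0 CPM across NS-DADm mice, the narrowest range of any member, with the highest library 1.07 times the lowest. Sema4d, a ligand of Plxnb1 made by oligodendrocytes and immune cells, had a log2 interval of -0.08 to 0.14, Sema4g of -0.07 to 0.16, Sema4b of -0.07 to 0.23 and Sema4c of -0.19 to 0.15. Exons of Sema4c share 7.3% of their bases with a gene on the opposite strand, and the strand setting of the counting is not given in the sources used here.

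Class 5, 6 and 7 ligands had fitted values below 0 in 6 of 7 genes, of which 0 passed. Over all 15894 genes tested, 7686 were below 0. Sema5a, which carries thrombospondin repeats, measured 123, 153 and 143 CPM across WT mice, against 135, 131 and 136 CPM across NS-DADm mice, so that all 3 NS-DADm libraries lay inside the WT range. Its relative Sema5b had a log2 fold change of -0.14 (edgeR, adjusted p = 0.68). Sema6b measured 149, 127 and 127 CPM across WT mice, against 123, 125 and 125 CPM across NS-DADm mice. WT 1 was high, and the other WT libraries lay just above all NS-DADm libraries, so the groups did not overlap although the log2 fold change was only -0.11 ± 0.06 (SE; edgeR, adjusted p = 0.59). Without WT 1 the value was -0.02 ± 0.04, and with the thalamus marker covariate it turned to 0.15 ± 0.13 (edgeR, adjusted p = 0.86 and 0.75). Sema6d, a ligand of Plxna1, had a log2 fold change of -0.10 (edgeR, adjusted p = 0.52), and Sema6c of 0.06. Sema7a measured 53.7, 46.1 and 40.4 CPM across WT mice, against 41.7, 39.3 and 42.3 CPM across NS-DADm mice, with overlapping groups and WT 1 highest (log2 -0.19 ± 0.09 SE; edgeR, adjusted p = 0.50). Its value was -0.07 without WT 1 and 0.11 with the thalamus marker covariate.

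Sema6a, a ligand of Plxna2 and Plxna4, was called in 1 of the 6 fits that left out a single library. It measured 65.0, 77.4 and 77.3 CPM in libraries WT 1, 2 and 3, compared with 66.0, 69.0 and 67.3 CPM in libraries NS-DADm 1, 2 and 3. WT 1 was the lowest of the 6 libraries, whereas WT 2 and WT 3 were the highest. With all libraries the log2 fold change was -0.12 ± 0.07 (SE; edgeR, adjusted p = 0.58). Without WT 1 it was -0.19 ± 0.05 and just past the threshold (edgeR, adjusted p = 0.047), and with NS-DADm 2 left out as well it was -0.21 ± 0.05 (edgeR, adjusted p = 0.017). With a covariate made from the thalamus markers it was -0.43 ± 0.13 (edgeR, adjusted p = 0.32). Over all 17 alternatives the adjusted p ranged from 0.017 to 0.90, and the fitted value was below 0 in each.

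**Figure D3:**
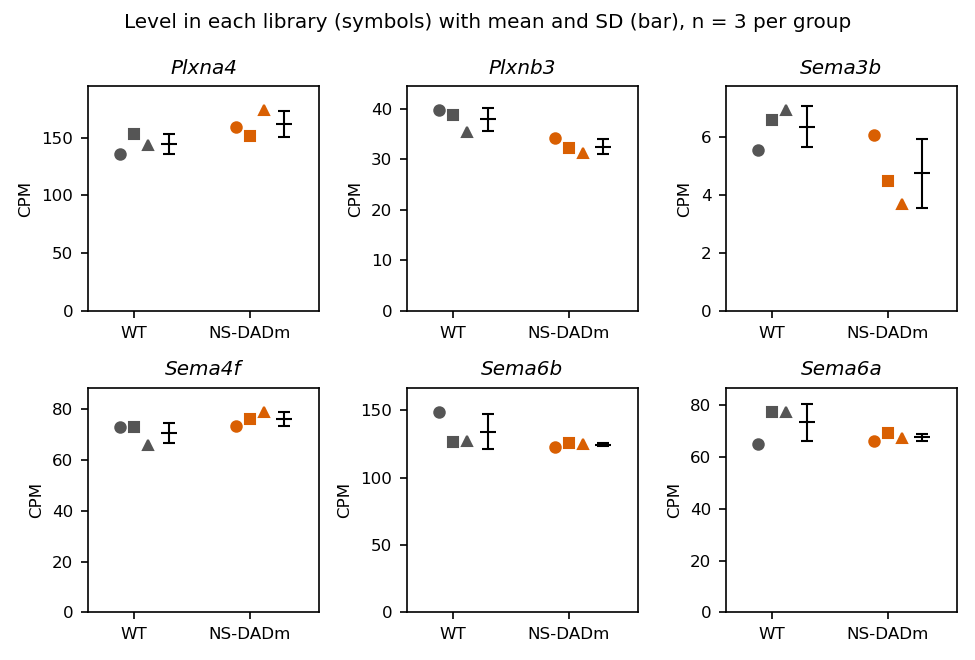
Level in CPM in each library for 6 genes, with the mean and SD of each group (n = 3) as bars beside the symbols. Plxnb3, Sema4f and Sema6b do not overlap between groups, Plxna4 and Sema3b do, and WT 1 lies apart from WT 2 and WT 3 for Sema6a and Sema6b.

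Among the receptors, the 2 neuropilins did not pass. Nrp2, the receptor for Sema3f, measured 86.1, 96.8 and 88.3 CPM across WT mice, against 96.6, 92.3 and 93.8 CPM across NS-DADm mice (edgeR, adjusted p = 0.77). Nrp1 had a log2 fold change of -0.01, with an interval of -0.15 to 0.14. All 4 plexin A genes, the signalling partners of neuropilins, had fitted values above 0 here and in all 17 alternative fits, and 0 of them passed. These fits reuse the same libraries, and the smallest values were 0.001 for Plxna2 and 0.006 for Plxna3. Over all 15894 genes tested, 8208 were above 0 in the main fit. Plxna4 measured 136, 153 and 143 CPM across WT mice, against 159, 152 and 174 CPM across NS-DADm mice. The groups overlapped at WT 2 and NS-DADm 2, and NS-DADm 3 was highest. The log2 fold change was 0.16 ± 0.06 (SE), and its unadjusted p of 0.018 gave an adjusted p of 0.33 (edgeR). Plxna1 measured 222, 226 and 202 CPM across WT mice, against 233, 223 and 236 CPM across NS-DADm mice (log2 0.09, interval -0.02 to 0.20). Exons of Plxna1 share 10.7% of their bases with a gene on the opposite strand. Plxna3 and Plxna2 had log2 fold changes of 0.07 and 0.05. With the thalamus marker covariate the value of Plxna4 was 0.04.

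Plxnb3, a receptor for Sema5a, had the smallest p of the family. It measured 39.7, 38.7 and 35.4 CPM in libraries WT 1, 2 and 3, compared with 34.2, 32.1 and 31.2 CPM in libraries NS-DADm 1, 2 and 3. Every NS-DADm library was below every WT library. The log2 fold change was -0.22 ± 0.07 (SE), with an interval of -0.37 to -0.08, and its unadjusted p of 0.0045 gave an adjusted p of 0.18 (edgeR). The fitted value was below 0 in all 17 alternatives, between -0.27 and -0.18, and the adjusted p was 0.064 to 0.82 there. Plxnb3 is also made by oligodendrocytes. The 13 oligodendrocyte markers summed to 5390 to 5810 CPM in WT and 4730 to 5428 CPM in NS-DADm. Of the 13, 12 had fitted values below 0, and Mobp went the other way (log2 0.22; edgeR, adjusted p = 0.33). Only 1, Ugt8a, fell past the threshold, where 0.573% of all genes tested passed as lower. None of the 13 was at 0 in any library, and their part in the Plxnb3 values was not tested. Plxnb2, the most abundant B plexin, measured 136, 138 and 129 CPM across WT mice, against 140, 136 and 135 CPM across NS-DADm mice, and the groups overlapped. The log2 interval was -0.08 to 0.13 for Plxnb2 and -0.10 to 0.11 for Plxnb1.

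Plxnc1, the receptor of Sema7a, measured 156, 177 and 173 CPM across WT mice, against 155, 168 and 174 CPM across NS-DADm mice (edgeR, adjusted p = 0.93). Replicates 1 of both genotypes were low, and the groups overlapped. Plxnd1 measured 28.7, 20.3 and 25.3 CPM across WT mice, against 24.3, 19.4 and 22.5 CPM across NS-DADm mice, with WT 1 highest (log2 -0.17 ± 0.13 SE; edgeR, adjusted p = 0.71). With the thalamus marker covariate its fitted value turned to 0.62 ± 0.17 (edgeR, adjusted p = 0.26). Sema3g, like Plxnd1 known from endothelium, was also highest in WT 1, with 7.06, 5.19 and 3.30 CPM across WT mice, against 5.85, 5.61 and 5.33 CPM across NS-DADm mice. The 10 endothelial markers summed to 222 CPM in WT 1 and to 177 to 191 CPM in the other libraries, and the 8 mural cell markers to 145 CPM in WT 1 and 103 to 117 CPM elsewhere. The fitted value of Sema3g turned from 0.11 to -0.13 without WT 3 and was 0.40 without WT 1. The part of these vessel markers in the 2 genes' values was not tested.

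**Figure D4:**
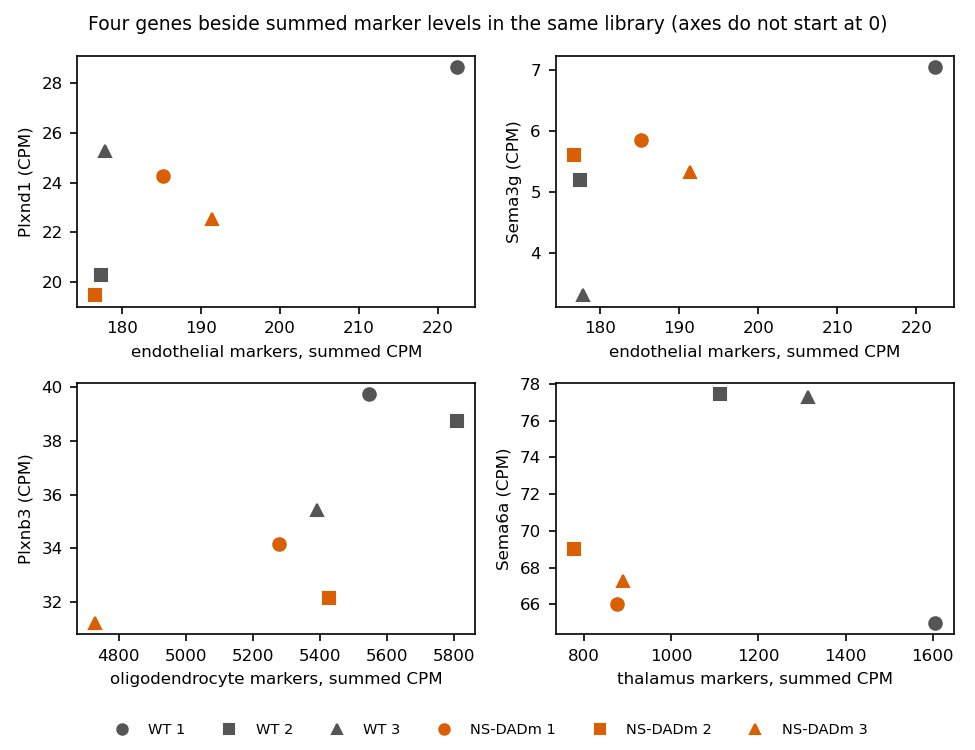
Level of 4 genes in CPM against the summed level of a marker list in the same library; the pairs were chosen after the values were seen. WT 1 lies at the upper right for Plxnd1 and Sema3g beside endothelial markers and at the lower right for Sema6a beside thalamus markers, and NS-DADm 3 lies lowest for both Plxnb3 and oligodendrocyte markers.

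Ligands and receptors that pair with each other can be read side by side. For Sema7a and Plxnc1 the log2 intervals were -0.38 to 0.01 and -0.15 to 0.10. Those of Sema4d and Plxnb1 were -0.08 to 0.14 and -0.10 to 0.11. Sema6d and its receptor Plxna1 had -0.22 to 0.01 and -0.02 to 0.20, and Sema3f and Nrp2 had -0.13 to 0.21 and -0.06 to 0.18. Each of these intervals contains 0. In other pairs named above the receptor's interval did not, before any adjustment. Sema5a and its receptor Plxnb3 had -0.21 to 0.10 and -0.37 to -0.08. Plxna4 had 0.03 to 0.30, beside -0.26 to 0.03 for its ligand Sema6a and -0.24 to 0.03 for Sema6b. Summed over genes, the 20 semaphorins reached 1100, 1102 and 1084 CPM across WT mice, against 1076, 1060 and 1058 CPM across NS-DADm mice, whereas the 9 plexins reached 1092, 1117 and 1059 CPM across WT mice, against 1128, 1084 and 1150 CPM across NS-DADm mice. The semaphorin sums did not overlap between groups and the plexin sums did, but both kinds of sum are led by a few abundant genes and carry no test.

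The spread between mice of one group was wider in WT than in NS-DADm for most members. The coefficient of variation (SD over mean) was larger in WT in 27 of 31 members (87.1%), beside 60.6% of all genes tested. Its median over members was 7.47% in WT and 4.05% in NS-DADm, against 6.95% and 5.33% over all genes tested. Sema3g varied most in WT, at 36.3%, against 4.71% in NS-DADm, and Sema3f varied by 8.70% and 0.60%. Sema3b and Sema3c went the other way, with 11.2% and 3.58% in WT and 25.4% and 14.5% in NS-DADm. Part of the WT spread lay with 1 library. The median absolute log2 ratio over members was 0.182 between WT 1 and WT 2 and 0.145 between WT 1 and WT 3, but 0.0934 between WT 2 and WT 3, and 0.056 to 0.0666 between NS-DADm pairs. Over all genes tested the same measure was 0.131, 0.138 and 0.0812 in WT and 0.0844 to 0.103 in NS-DADm. WT 1 held the highest value of 10 members and the lowest of 7, and WT 3 the highest of 4 and the lowest of 11. No test was made of this difference in spread.

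**Figure D5:**
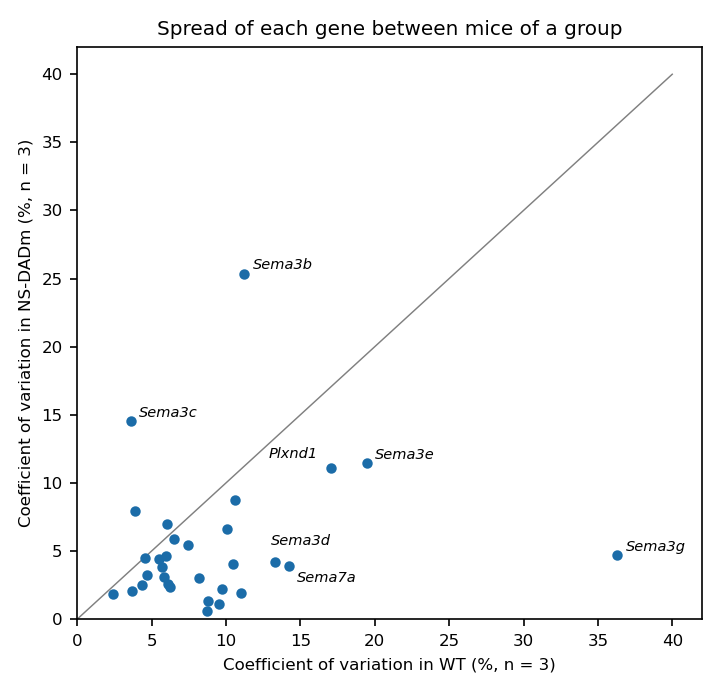
Coefficient of variation between the 3 mice of each group, in percent, with WT on the horizontal and NS-DADm on the vertical axis; each point is 1 of the 31 genes and the line marks equal spread. Below the line lie 27 points, Sema3g farthest, and Sema3b and Sema3c lie well above it.

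Co-receptors and signalling partners of the family held no called gene, where 0.654% of all genes tested passed. Of 14 semaphorin co-receptor genes, 12 were tested and 0 passed, with a median log2 fold change of -0.03. L1cam, an adhesion molecule that joins Nrp1 in the Sema3a receptor, had a log2 fold change of -0.13, with 363, 362 and 352 CPM in WT libraries and 329, 326 and 329 CPM in NS-DADm libraries. Tyrobp, the signalling adaptor of Trem2, had 0.26, with 7.09, 7.45 and 7.35 CPM and then 8.43, 9.67 and 8.03 CPM. Neither passed (edgeR, adjusted p = 0.25 and 0.39), and their groups did not overlap, as for 16.8% of all genes tested. Genes named here had the smallest p of their list, a choice that favours groups that do not overlap. Of 28 genes of plexin signalling, 0 passed, 9 lay above and 19 below 0, and the median was -0.04. Cdk5r1, an activator of the kinase CDK5 that acts downstream of Sema3a, measured 233, 211 and 223 CPM across WT mice, against 191, 189 and 189 CPM across NS-DADm mice. Its groups did not overlap and it came close to the threshold (log2 -0.23 ± 0.05 SE; edgeR, adjusted p = 0.054), and the adjusted p over the 17 alternatives ran from 0.0047 (DESeq2) to 0.91 (edgeR with the thalamus marker covariate). Dpysl4, of the collapsin response mediator proteins, measured 40.4, 36.4 and 33.7 CPM across WT and 43.7, 43.5 and 44.0 CPM across NS-DADm. Its log2 fold change was 0.25 ± 0.07 SE (edgeR, adjusted p = 0.15), and 0.32 without WT 1, then past the threshold (edgeR, adjusted p = 0.0062). That was the only fit with 1 library left out in which Dpysl4 was called, and the adjusted p reached 0.53 in the others (edgeR). It was called in 2 of the 17 alternatives.

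Of the other guidance families, the ephrins and Eph receptors held 2 called genes of 22, both lower, where 0.573% of all genes tested passed as lower. The netrin list held 0 of 13 tested and slits and robos 0 of 10, where 0.654% of all genes passed in either direction. Whether the families differ in this was not tested. Epha7, a receptor for ephrin A ligands, fell from 35.0, 37.1 and 38.8 CPM in WT to 27.8, 27.5 and 26.8 CPM in NS-DADm (log2 -0.43 ± 0.06 SE; edgeR, adjusted p = 0.0087). Epha4, which binds ephrins of both classes, fell from 112, 99.3 and 105 CPM to 87.6, 82.0 and 85.8 CPM (log2 -0.31 ± 0.06 SE; edgeR, adjusted p = 0.028). All NS-DADm libraries were below all WT libraries for both. Leaving out WT 3, NS-DADm 2 or NS-DADm 3 ended both calls, and leaving out NS-DADm 1 ended that of Epha4 (edgeR, adjusted p from 0.0514 to 0.185). With the thalamus marker covariate Epha7 had -0.53 and Epha4 -0.05 (edgeR, adjusted p = 0.30 and 0.93), and with a pituitary marker covariate neither passed (0.56 and 0.70). Each covariate separated the groups, so these fits cannot tell marker level from genotype. Ntng1, which is also a marker of thalamus, had the smallest p of the netrin list, with 145, 93.8 and 124 CPM across WT mice, against 65.5, 61.5 and 66.6 CPM across NS-DADm mice (log2 -0.91 ± 0.16 SE; edgeR, adjusted p = 0.11). It passed in 4 of the 17 alternatives, among them without WT 2 (log2 -1.06), and had -0.05 with the thalamus marker covariate (edgeR, adjusted p = 0.93). Unc5a, a netrin receptor, had 76.1, 78.0 and 69.0 CPM in WT libraries and 84.2, 82.1 and 82.2 CPM in NS-DADm libraries (log2 0.16; edgeR, adjusted p = 0.30). The slit receptor Robo2 had 52.5, 54.6 and 57.3 CPM in WT libraries and 46.0, 46.1 and 50.6 CPM in NS-DADm libraries (log2 -0.20; edgeR, adjusted p = 0.19). It passed without WT 1 (edgeR, adjusted p = 0.047) but with no other single library left out, where the adjusted p reached 0.53 (edgeR). Robo2 passed in 2 of the 17 alternatives. Robo1 had 79.7, 72.5 and 77.5 CPM in WT libraries and 70.5, 66.2 and 67.7 CPM in NS-DADm libraries (log2 -0.17; edgeR, adjusted p = 0.24). The groups did not overlap for Ntng1, Unc5a, Robo2 or Robo1, as for 16.8% of all genes tested. They were named for the smallest p of their lists, a choice that favours groups that do not overlap.

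Nuclear receptors, which recruit NCOR1 and SMRT to DNA, bind half-sites with the letters AGGTCA, so the promoters of the family were searched for them on both strands. RefSeq promoters (GRCm38.p6, the same build as mm10; 250 bases before to 50 after a start) were found for 26 of the 31 genes, 37 promoters in all. AGGTCA was in 7 of these 37 (18.9%) and in 16.3% of all 32851 promoters of the table, so the family's share was close to that of all promoters. The 7 matches are shown with up to 12 bases on each side, 5′ to 3′ on the strand of the match, with the half-site in capitals.
Sema4b: acatgccaAGGTCAgagagggtgcag
Sema4d: tgccccaccctgAGGTCAaggcctctgaat
Sema5a: aggggcctgggaAGGTCAggggtgggtggg
Sema6b: gccgcagtgcagAGGTCAgcctcctggaat
Nrp1: tccgcgggaagaAGGTCActag
Plxnb2: cacccctgctccAGGTCAggtggcgcagtt
Plxnd1: ccccgcggtccgAGGTCActggtggccgat

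Among ligands of membrane classes 4 and 5, Sema4b held its match at chr7:80186620-80186645 (plus strand), Sema4d at chr13:51756721-51756750 (plus strand) and Sema5a at chr15:32244662-32244691 (plus strand). The match of Sema6b lay at chr17:56133999-56134028 (minus strand), at the downstream of its 2 listed starts. Those of the receptors lay at chr8:128358823-128358844 (minus strand) for Nrp1, chr15:89174139-89174168 (minus strand) for Plxnb2 and chr6:115995091-115995120 (plus strand) for Plxnd1. The matches of Sema4d and Plxnb2 also lay inside the gene, at starts downstream of its 5′ end. Their annotated spans are 51685529 to 51793747 and 89155549 to 89180788, with the genes on the minus strand. The match of Nrp1 lay just inside its gene, which begins at 128358604 (plus strand). The 7 genes with a match had log2 fold changes from -0.17 (Plxnd1) to 0.08 (Sema4b), and 0 of them passed. Plxnb3, Sema3e and Sema7a had promoters in the table without these letters in the window. The promoters of the family were rich in CG, with a median of 15 CG pairs and 63.7% G or C, against 7 and 52.7% over all promoters. A match of 6 letters is a description and shows no binding.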

How the data were processed

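Whole-hypothalamus RNA of 6 mice was sequenced. The processing tools named per the submitters' processing notes are TopHat2 2.0.9 and HTSeq, with mm10 as the build. The HTSeq version, annotation and strand setting: not given in the sources used here. The deposited values were raw read counts per gene symbol, and 5 entries of unassigned reads were left out (outside genes 13.3 to 14.8%, not unique 14.3 to 16.5%, ambiguous 1.00 to 1.06% of all entries counted).

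Counts were filtered with filterByExpr, leaving 15894 genes, given TMM factors (0.992 to 1.01), and compared by edgeR 4.0.16 (robust quasi-likelihood F test, R 4.3.3, no covariates). The p-values were adjusted over all genes (Benjamini-Hochberg, threshold 0.05), and SE and 95% intervals came from the F statistic. RPKM used GENCODE M21 merged exons, matched for 95.4% of symbols. Alternatives used DESeq2 1.42.0, limma 3.58.1, other scaling, other filters, covariates, a replicate block and left-out libraries. The fit was tested on simulated data.

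The members and lists were chosen with earlier results of these data known. Values per library are given for members with an unadjusted p under 0.05, members whose groups do not overlap and the most abundant member of each class, and for each other list the called genes and the 2 with the smallest p. Sema6a and Sema3g were added after their values were seen. Chi-square per degree of freedom between libraries of one group was 3.30 to 9.98, so none was counted as a repeat. Figures were drawn with matplotlib 3.10.9.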

Additional observations from a re-analysis of the deposited data

How the results depend on the processing

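Over all genes, 104 were called. The number was 282 with the DESeq2 Wald test, 203 with no filter, 9 with the thalamus marker covariate and 5 to 312 with 1 library left out (omitting WT 1 gave 312, WT 2 262, WT 3 10, NS-DADm 2 5 and NS-DADm 3 8). Of alternatives added after seeing the data, leaving out WT 1 and NS-DADm 2 gave 584, and a pituitary marker covariate gave 0 in edgeR (989 at an unadjusted p under 0.05). The thalamus and pituitary marker levels each separated the groups, so fits with these covariates cannot tell marker level from genotype. The cause of these shifts was not tested. Members called were 0 to 1 with 1 library left out and 1 without WT 1 and NS-DADm 2, in both cases Sema6a, and 0 in every other alternative. Members at an unadjusted p under 0.05 (edgeR) numbered 12 without WT 1, where 2328 of 15999 genes tested did. Without WT 1 and NS-DADm 2 there were 13, where 2652 of 15879 genes did. The replicate block gave 7, where 2087 of 15894 genes did. With any other single library left out there were 1 to 5, where 1099 to 1793 genes did. The cause of this rise was not tested.

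Called genes of plexin signalling numbered 1 with DESeq2, 1 with no filter, 0 to 2 with 1 library left out and 3 without WT 1 and NS-DADm 2. The netrin list had 1 with DESeq2, 1 with limma voom and 0 to 1 with 1 library left out, and slits and robos 0 to 1 and, without WT 1 and NS-DADm 2, 1. Ephrins and Eph receptors had 0 to 3 with 1 library left out and 0 with either covariate.

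Of the 31 members, 13 kept their sign in all 17 alternatives and 21 with each library left out. Samples of the 2 groups share only replicate numbers: deviations of same-numbered libraries correlated with r of 0.13, 0.09 and -0.04 across genes. WT 1 and WT 2 correlated best with their own number, and WT 3 did not. With the replicate block 409 genes were called over all genes, 1 in plexin signalling, 1 in netrins and 0 among the members. Sema3b, Sema3e and Sema3g, with 87 to 311 reads per library, had the fewest reads of the members. They also had the largest SE of the log2 fold change (0.17, 0.14 and 0.23). The part of depth in this was not tested.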
